A study of Caenorhabditis elegans with 5 samples.

Results

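Young adults of the nematode Caenorhabditis elegans, collected on day 1 of adulthood, were set against gld-1 RNAi animals collected on day 3. These are 2 of the 5 RNA sequencing libraries of the study, 1 library a side. Genes were described where the mean of their normalized reads in this pair of libraries was at least 50, which kept 10795 of the 45461 gene identifiers listed. No measured value took part in choosing the libraries.

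The young adult animals had eaten bacteria with the empty RNAi vector L4440 at 20 °C, and the gld-1 RNAi animals had eaten bacteria carrying RNAi against gld-1. The labels do not name the strain. The labels do not settle when RNAi began, at the first larval stage or after day 1 of adulthood. Each library pooled about 3000 whole animals from 2 independent experiments, so variation between animals or experiments cannot be seen, and no difference below has a replicate check or a p-value of its own. The other libraries were a control of day 3 on L4440 bacteria, and gld-1 RNAi animals that were moved on day 2 to L4440 bacteria (fed) or to plates with no food (fasted) for 48 h, both labelled day 4. Age and RNAi differ together between the young adult and the gld-1 RNAi library and cannot be told apart in this pair. The control, which shares the age of one and the food type of the other, is therefore given beside it.

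GLD-1 is an RNA-binding protein of the germline that represses many maternal mRNAs and is needed for germ cells to pass through meiosis as oocytes. Without it, germ cells can leave meiosis and divide again, which fills the gonad with a tumour. A hermaphrodite makes its sperm first and then makes oocytes only, and the epidermis builds the collagen cuticle of the adult around the last moult, so animals at the start of adulthood stand close to both events.

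The young adult library held 15426039 reads and the gld-1 RNAi library 27598482. The 3 other libraries held 13803289 to 27547808 reads. Ribosomal RNA genes took 3.53% of the reads of the young adult library and 25.7% to 28.1% of those of the 4 older ones. A log2 fold is that of the gld-1 RNAi over the young adult library, on the authors' normalized values plus 1, which understates the folds of low genes. A level is a read count divided by a size factor set over all 5 libraries, and its values are listed in the order young adult, control, gld-1 RNAi, fed and fasted. A step is a log2 fold between levels, from young adult to control or from control to gld-1 RNAi. The steps share the control library with each other and their outer libraries with the direct comparison, so they are set side by side as values. Intervals are exact 95% intervals of the ratio of reads and cover counting error only. Whole animals were sequenced, so fewer cells of a type and less RNA per cell cannot be told apart.

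The RNAi target came first. gld-1 (T23G11.3) stood at levels of 17593, 20340, 1994, 3061 and 1592. Both libraries from L4440 animals were high and the 3 from gld-1 RNAi animals were low, as labelled, with a log2 fold of -3.03 (interval -3.09 to -2.97). Reads from ingested RNAi food could add to the gld-1 count of animals taken from it, which was not tested.

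Of the 10795 genes, 1876 (17.4%) were higher by 2-fold or more and 2570 (23.8%) lower by as much in gld-1 RNAi animals, with a median log2 fold of 0.12. With both libraries scaled to equal totals, rRNA included, the same counts were 886 and 3473 and the median was -0.33. Scaled to equal upper quartiles they were 2702 and 2218, with a median of 0.37. List medians below are to be read against the median of all genes, and list counts against the 17.4% higher and 23.8% lower of all genes. The lower side reached much further. At least 16-fold lower were 667 genes and at least 16-fold higher 74. At least 64-fold, the numbers were 238 and 20. Genes of low level lay mostly on the lower side, with a median of -0.72 at means from 50 to 100, while at means from 2000 to 5000 the median was 0.50. A minimum mean keeps genes that are high in 1 library only, on either side. The 227 genes just inside the minimum, at means from 50 to 55, had a median of -0.88, and the 287 just outside, at means from 45 to 50, one of -0.94. At an adjusted p under 0.1, the authors' deposited table calls 11 genes higher and 174 lower.

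**Figure D1:**
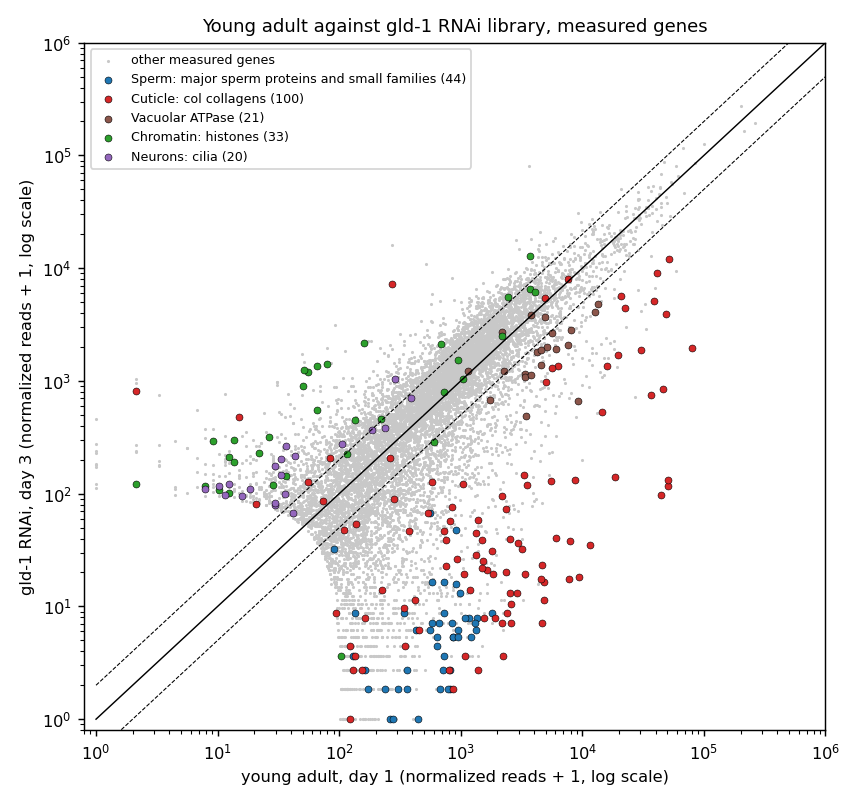
Normalized reads plus 1 of each measured gene in the young adult (horizontal) and the gld-1 RNAi library (vertical), both on log axes; 1 point is 1 gene, the solid line is equality and the dashed lines are 2-fold. Sperm genes and collagens lie far below the line, vacuolar ATPase genes just below it, and histone and cilium genes above it at the left.

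The genes of the far lower tail were, at their median, nearly absent from every older library. The 667 genes at least 16-fold lower had median levels of 310, 1.75, 5.37, 7.47 and 3.2. The control held no read for 215 of them. Of the 667 genes, 49 stood in the sperm lists and 77 in the collagen lists. Among all 10795 measured genes the sperm lists held 66, and the collagen lists held 100 col genes and 19 body shape collagens. There was no name beyond the sequence identifier for 344 of the 667 genes and for 3933 of the 10795. By chromosome the 667 genes made up 9.57% of the measured genes of chromosome IV, 7.26% of V, 6.93% of II and 6.5% of I. They made up 3.26% of those of III and 3.18% of those of X, against 667 of 10795 over all chromosomes. The 74 genes at least 16-fold higher had median levels of 7.74, 109, 257, 254 and 156. Both sets were chosen by their young adult and gld-1 RNAi values. Their gap between the young adult and the control is therefore partly set by that choice.

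**Figure D2:**
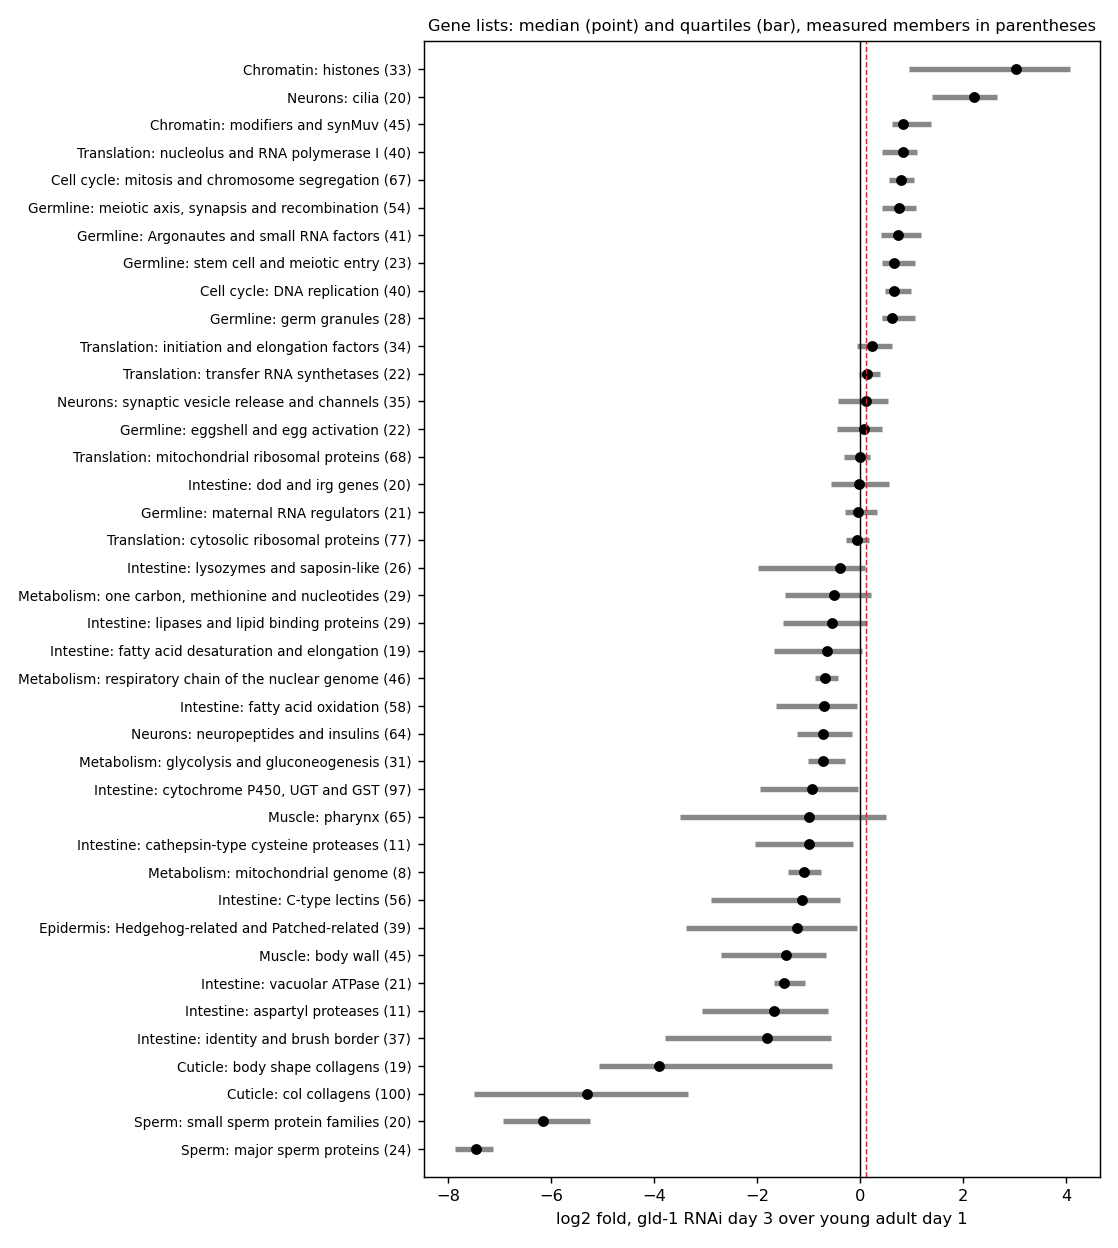
Median (point) and quartiles (bar) of the log2 fold of the gld-1 RNAi over the young adult library for each gene list, with the number of measured members in parentheses; the dashed line is the median of all measured genes, 0.12. The msp, small sperm protein, col and body shape collagen lists have the lowest medians, lists of gut, muscle and metabolism lie below 0, and lists of the cell cycle, chromatin, meiosis and germline stem cells lie above the dashed line, with maternal RNA and eggshell lists near 0.

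The families of small sperm proteins were almost absent from the gld-1 RNAi library, and their few reads were more there than in the control. The major sperm proteins, which build the motile cytoskeleton of nematode sperm, took 0.107%, 4.5e-05%, 0.000503%, 0.000946% and 6.9e-05% of reads outside rRNA in the 5 libraries. All 24 measured members were 2-fold or more lower, as were all 20 of the small sperm protein families, which had a median log2 fold of -6.16. Such members pass the minimum mean mainly through their young adult reads, so these counts are partly set by it. With no minimum mean, 29 of 30 major sperm protein genes with reads and 25 of 25 of the small families were lower, and 0 higher. In the small families the step from young adult to control had a median of -8.19, and 19 of 20 members were lower in it, against 26.6% of all measured genes. The step from control to gld-1 RNAi had a median of 2.27. These families hold near-identical copies, so reads may be split between their members. ssp-19 (C55C2.2), a short relative of the major sperm proteins, had no read in the gld-1 RNAi library and was lower by at least 105-fold, at a floor of 3 reads.

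The same order was seen in single members of other lists. alg-4 (ZK757.3), 1 of a pair of Argonautes that act with small RNAs in sperm development, had levels of 909, 0.874, 9.97, 23.3 and 6.39. Its partner alg-3 (T22B3.2) had levels of 832, 0.874, 12.3, 27.4 and 7.99. Both were high in the young adult only, lowest in the control, and highest among the older libraries in the fed one. The CPEB-family regulator cpb-2 (C30B5.3) stood at 218, 2.62, 22.2, 24.1 and 19.2. The cytochrome c gene cyc-2.2 (ZC116.2) went from 366 to 4.6 between the young adult and the gld-1 RNAi library (log2 fold -5.95), whereas the other cytochrome c gene, cyc-2.1, was level (11596 and 10782, log2 fold 0.01). The acyl-CoA dehydrogenase gene acdh-8 (K05F1.3, 668 and 2.3), the phosphoenolpyruvate carboxykinase gene pck-3 (H04M03.1, 310 and 2.3) and the histone H3 variant his-70 (E03A3.4, 98.4 and 2.3) held 3 reads each in the gld-1 RNAi library and none in the control. With cyc-2.2, these genes had the lowest folds of the lists of fat oxidation, sugar metabolism, histones and the respiratory chain, and their levels had the order of the sperm genes.

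Genes of sex determination and sperm fate did not share the low values of the genes of finished sperm. This list was not split by the fate that a gene promotes. Of its 17 measured genes, 7 were 2-fold or more higher, 0 lower and 10 within 2-fold (median 0.73). fog-3 (C03C11.2), needed for germ cells to become sperm, stood at 16.6, 6.99, 165, 278 and 99.1, high in the 3 gld-1 RNAi libraries only. fog-1, a CPEB protein with the same role, stood at 271, 545, 1271, 1747 and 1136. tra-1 (Y47D3A.6), the transcription factor at the end of the sex determination pathway, was 2-fold or more higher in every older library than in the young adult (542, 2977, 4251, 4523 and 4731). In the list of sperm activation, motility and fertilization, 10 of 22 measured members were 2-fold or more lower and 2 higher. At a minimum mean of 200 the numbers were 3 and 2, and at one of 10 they were 21 and 3. From young adult to control 16 of the 22 were lower and 0 higher (median -3.02), against 26.6% and 15.4% of all measured genes. The summed level of the list, to which abundant members add most, was 13358, 11020, 9678, 10045 and 9892. Some of its members were therefore not absent from the older libraries. Of the sex determination and sperm fate genes, 3 were higher with equal totals, rRNA included.

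Cuticle collagens were abundant in the young adult library and far lower in the others. The col genes took 4.77%, 0.687%, 0.445%, 0.35% and 0.0853% of reads outside rRNA in the 5 libraries. Of 156 col genes 100 were measured, with 90 2-fold or more lower, 6 higher and a median log2 fold of -5.31. The median of their steps was -5.14 from young adult to control and -0.17 from control to gld-1 RNAi. Within the family the difference varied widely. col-139 (F41F3.4) stood at 48486, 92.6, 116, 19.9 and 7.99, and col-133 (F52B11.4) at 9039, 0, 15.3, 0.83 and 1.6. By contrast col-122 stood at 49300, 17668, 10702, 9847 and 2616, and col-181 at 39456, 14124, 8041, 7527 and 1538. All 4 were highest in the young adult library.

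A few collagens had the opposite order. col-183 (F02D10.1) had 1 read in the young adult library and stood at levels of 1.11, 143, 720, 496 and 44.8. col-158 went from 13.3 to 424 and col-95 from 260 to 6381 between the young adult and the gld-1 RNAi library. Among the collagens that shape the body, dpy-14 (H27M09.4) was higher in every older library (5.53, 620, 489, 891 and 537), against 13 of 19 measured members that were 2-fold or more lower. bli-6 (Y73B6BL.34), a blister-class cuticle collagen, was the lowest of these (4151, 1.75, 13, 7.47 and 6.39). For these body shape collagens the step from control to gld-1 RNAi was positive (median 1.39, 11 higher and 1 lower, against 11.8% and 7.95% of all measured genes), on levels that were very low in both. The genes that process collagen were less far apart, with 6 of 16 lower, 0 higher and a median of -0.49. The peroxidase mlt-7, which cross-links the cuticle, was among them (1242 and 147, log2 fold -2.96).

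Of 39 measured Hedgehog-related and Patched-related genes, 21 were 2-fold or more lower and 4 higher (median -1.22). The nematode has no canonical Hedgehog, and these relatives are produced largely by the epidermis. grd-6 (T18H9.1) stood at 822, 2.62, 11.5, 7.47 and 6.39, and grl-16 (Y65B4BR.6) at 2559, 86.5, 42.2, 24.1 and 33.6. Both were low in all 4 older libraries. All 6 measured grd genes were lower, and of the grl genes 6 were lower and 1 higher. The 18 measured ptr genes, which encode Patched-related membrane proteins, were mixed, with 5 lower and 3 higher (median -0.36). These shares (27.8% and 16.7%) were near the 23.8% and 17.4% of all measured genes. The summed level of the whole list, to which abundant members add most, did not fall to the control (29865, 32869, 18102, 17244 and 18608). Most single members did. From young adult to control 24 of the 39 were 2-fold or more lower and 2 higher (median -1.46), against 26.6% and 15.4% of all measured genes. The summed level went from 5961 to 456 for grd, from 5021 to 620 for grl and from 8921 to 10789 for ptr genes. ptr-10 (F55F8.1), of the Patched-related family, had the reverse order and differed between control and gld-1 RNAi (13.3, 15.7, 127, 176 and 109). The small peptide genes nlp-24, nlp-26, nlp-27 and nlp-33 led the lower side of the neuropeptide and insulin list, in which 21 of 64 measured genes were lower and 5 higher. nlp-24 was furthest apart, at 2327 and 43.7. Molting genes had a median of -0.03, with 8 of 25 lower (32%) and 3 higher (12%). Of 11 measured cutl and zona pellucida genes 3 were lower (27.3%) and 2 higher (18.2%), with a median of -0.16. The shares of all measured genes were 23.8% and 17.4%. Neither the molting nor the cutl and zona pellucida list shared the low values of the collagens.

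**Figure D3:**
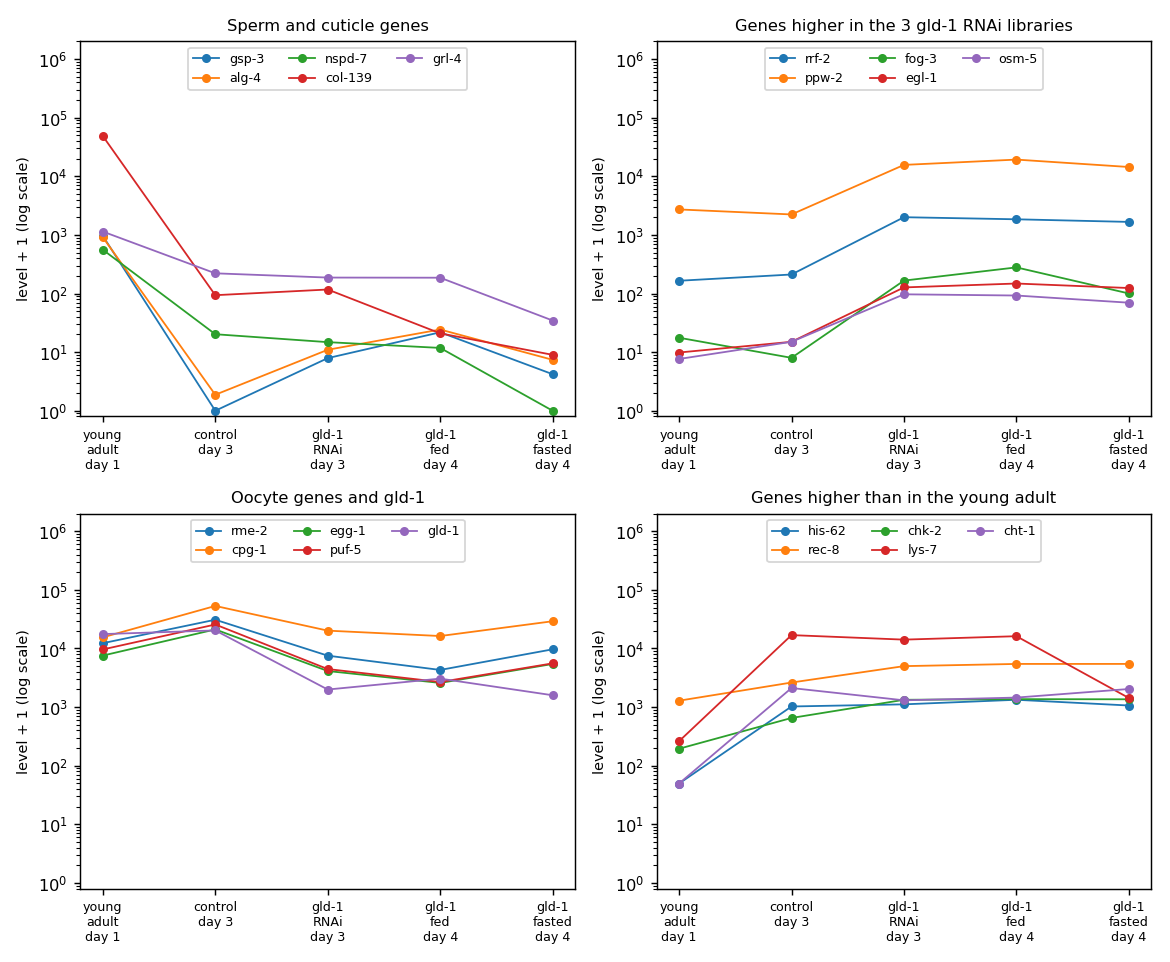
Levels plus 1 on a log axis in the 5 libraries for 20 genes in 4 panels; 1 point is 1 library and lines only join the points of a gene. Sperm and cuticle genes are high in the young adult library alone, rrf-2, ppw-2, fog-3, egl-1 and osm-5 are higher in the 3 gld-1 RNAi libraries, and the 4 oocyte genes peak in the control.

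Genes of the intestine were lower, and further down in the gld-1 RNAi library than in the control. Of 37 measured genes of intestinal identity and the brush border, 25 were 2-fold or more lower and 3 higher (median -1.80), with steps of -1.33 and -0.72. The intermediate filament gene ifc-1 (F37B4.2) stood at 860, 61.2, 8.44, 12.5 and 6.39. The peptide transporter pept-1 (K04E7.2) stood at 2559, 157, 69.8, 59.8 and 137. The transcription factor elt-2, which sets intestinal fate, was less far apart than these (169, 94.3, 61.4, 59.8 and 32). The esterase ges-1, a marker of the gut lineage, was level within 2-fold (335 and 243), so the markers of the tissue did not differ by 1 factor. The brush border actin act-5 stood at 13928, 1636, 951, 901 and 292.

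Digestive enzymes and the proton pump of the gut were lower together. Of 21 subunits of the vacuolar ATPase, which acidifies lysosomes and the gut lumen, 16 were 2-fold or more lower and 0 higher (median -1.48). vha-6 (VW02B12L.1), the intestinal isoform of the membrane subunit, was furthest apart (8814, 1212, 587, 448 and 746), and its isoform vha-7 was level (2097 and 2406, log2 fold 0.31). Of 11 aspartyl proteases 6 were lower and 1 higher, with asp-1 at 32162, 6027, 2577, 2734 and 5348. Of 11 cathepsin-type cysteine proteases 5 were lower and 1 higher, with cpr-5 at 14438 and 1413. The list of detoxifying cytochrome P450, UGT and GST genes had 47 of 97 lower and 11 higher (median -0.94).

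Lysozymes and lectins, secreted proteins of digestion and defence, lay on both sides. lys-7 (C02A12.4), a lysozyme induced by some pathogens, stood at 261, 16915, 14164, 16204 and 1429, with a log2 fold of 5.87 (interval 5.69 to 6.07) and, in the authors' deposited table, an adjusted p of 0.0021. lys-4 (F58B3.1) stood at 3799, 744, 75.9, 111 and 79.9. The first was low in the young adult library and the second was high there. Of 26 measured lysozyme and saposin-like genes 5 (19.2%) were higher and 10 (38.5%) lower, against 17.4% and 23.8% of all measured genes. spp-9 (T25C12.2), of the saposin-like group, had no read in the young adult and 1 in the control, and was higher by at least 79.3-fold in gld-1 RNAi animals (levels 0, 0.874, 243, 485 and 22.4). Among 56 measured C-type lectins 28 were lower and 7 higher, and clec-266 was the furthest of the higher ones (7.74, 1490, 330, 490 and 508). The metallothionein mtl-1 (K11G9.6), which binds metal ions, had 1 read in the young adult library and levels of 1.11, 1012, 238, 236 and 296.

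Yolk protein genes were within 2-fold for the most abundant members. vit-6, at 253852 and 172489, and vit-2, at 202953 and 146482, differed by log2 folds of -0.44 and -0.36. vit-1 was lower (38086 and 5879, log2 fold -2.58), and vit-5 was higher (64034 and 102158, log2 fold 0.79). The vit genes include close copies, whose reads may be shared.

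Genes of energy and one carbon metabolism lay a little below the other genes, with some isoforms far lower. Of 46 measured genes of the respiratory chain, 10 were 2-fold or more lower and 0 higher (median -0.69), and 40 had intervals below 0, as did 39.4% of all measured genes. The share past 2-fold was no higher than the 23.8% of all measured genes, while with equal totals, rRNA included, 27 were lower. Protein genes of the mitochondrial genome had a median of -1.08, and 4 of 8 were lower. sams-1 (C49F5.1), an S-adenosylmethionine synthetase gene, stood at 4721, 401, 285, 374 and 241. Its relatives sams-3 (1188 and 545) and sams-4 (1091 and 771) were closer to level. pmt-2, which makes phosphatidylcholine precursors, stood at 10871, 1264, 782, 731 and 430. Of 31 measured genes of glycolysis and gluconeogenesis 8 were lower and 0 higher, a share near the 23.8% of all measured genes, and the median was -0.73. With equal totals, rRNA included, 18 were lower, and with equal upper quartiles 5.

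Body wall muscle genes were lower in both day 3 libraries. Of 45 measured genes of body wall muscle 28 were 2-fold or more lower and 1 higher (median -1.44). The median steps were -2.14 to the control and 0.20 from control to gld-1 RNAi. unc-54 (F11C3.3), the main myosin heavy chain, stood at 56185, 6304, 8440, 8164 and 5220, and the myosin light chain mlc-1 at 14399, 1383, 1002, 894 and 582. The 1 higher member was unc-38, an acetylcholine receptor subunit also used by neurons (89.6 and 263). Pharynx genes were mixed. Of 65 measured members 32 were lower and 10 higher, and at a minimum mean of 200 the numbers were 19 and 8 (median -0.43). Their summed level, to which abundant members add most, was highest in the control (76736, 86667, 74154, 75082 and 82700). From young adult to control, however, 34 of the 65 were 2-fold or more lower and 11 higher (median -1.28). The shares of all measured genes in that step were 26.6% and 15.4%. The pharyngeal myosins myo-1 (5788 and 290) and myo-2 (5677 and 462) were on the lower side. abu-1 (AC3.3), of a family of repeat proteins secreted for the lining of the pharynx, had no read in any older library, and was lower by at least 75.1-fold in gld-1 RNAi animals.

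Genes of meiosis, germline stem cells, germ granules, mitosis and chromatin lay moderately above the other genes. Of 54 genes of the meiotic axis, synapsis and recombination, 19 were 2-fold or more higher and 0 lower (median 0.76), and 47 had intervals above 0, as did 47.7% of all measured genes. Of 23 stem cell and meiotic entry genes 9 were higher and 0 lower (median 0.66), of 28 germ granule genes 11 and 0 (median 0.61), and of 67 mitosis genes 20 and 0 (median 0.80). Chromatin modifiers had 19 of 45 higher and 0 lower (median 0.83). These counts depended on the scaling. With equal totals, rRNA included, the numbers higher were 6, 3, 4, 7 and 11 in the order given, with 1, 2, 1, 0 and 0 lower, and the medians were 0.33, 0.24, 0.18, 0.37 and 0.41, against -0.33 for all genes. With equal upper quartiles 37 mitosis genes were higher. In the step from young adult to control the 5 medians were 0.69, 0.95, 0.81, 1.02 and 0.86. In that step 7, 10, 9, 37 and 17 of their measured genes were higher, against 15.4% of all measured genes. For the meiotic list the share higher was near that background. In each of the 5 lists 0 were lower, against 26.6% of all measured genes, whose median was 0.12. From control to gld-1 RNAi their medians were -0.08, -0.29, -0.29, -0.30 and -0.15.

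Some members stood apart within these lists. The meiotic kinase chk-2 (Y60A3A.12) stood at 194, 652, 1332, 1366 and 1359, and rec-8 (W02A2.6), a cohesin of meiosis, at 1286, 2626, 5000, 5452 and 5454. Both were lowest in the young adult, intermediate in the control and highest in the 3 gld-1 RNAi libraries. Of the SET domain genes, set-26 (Y51H4A.12) stood at 556, 3480, 5206, 5077 and 6425, and set-25 (Y43F4B.3), which methylates histone H3 lysine 9, at 367, 4160, 2285, 2246 and 2794. The latter peaked in the control. fbf-1 (530, 709, 1582, 1960 and 1574) and fbf-2 (452, 570, 1173, 1237 and 1045), the paired Pumilio proteins that keep germline stem cells, were near level between the libraries from L4440 animals. puf-3, another Pumilio gene, was the lowest of the stem cell list (6259 and 3552, log2 fold -0.70).

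Histone genes had a median of 3.02, with 24 of 33 measured members 2-fold or more higher and 2 lower. Some members passed the minimum mean only through their reads in the gld-1 RNAi library, such as his-1 (T10C6.14) with 1 and 141 reads. With no minimum mean the list median was 2.06. Of 81 members 47 had reads, and the core histone genes are near-identical copies between which reads may be split or dropped. The list was divided, after its values were seen, into linker histones with H2A and H3 variants and all other histone genes. The other histone genes had a median of 3.59, with 18 of 21 higher and 0 lower. The linker and variant genes had a median of 1.05, with 6 of 12 higher and 2 lower. The core histone gene his-62 (F55G1.3) stood at 48.7, 1024, 1114, 1333 and 1064, low in the young adult library alone. The linker histone his-24 (M163.3) was also low there alone (152, 2236, 1914, 1915 and 1472), while the H3 variant his-71 stood at 578, 235, 252, 212 and 261. rrn-3.1, a gene of the large ribosomal RNA, was also low in the young adult library alone (587186, 6666182, 5356421, 6197332 and 5778408). Of 4 measured rRNA genes 2 were 2-fold or more higher and 2 within 2-fold. The part of the rRNA share in the histone values was not tested. The labels conflict on the material, with mRNA in 1 field and total RNA in another for each library, and state neither a poly(A) selection step nor its absence.

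**Figure D4:**
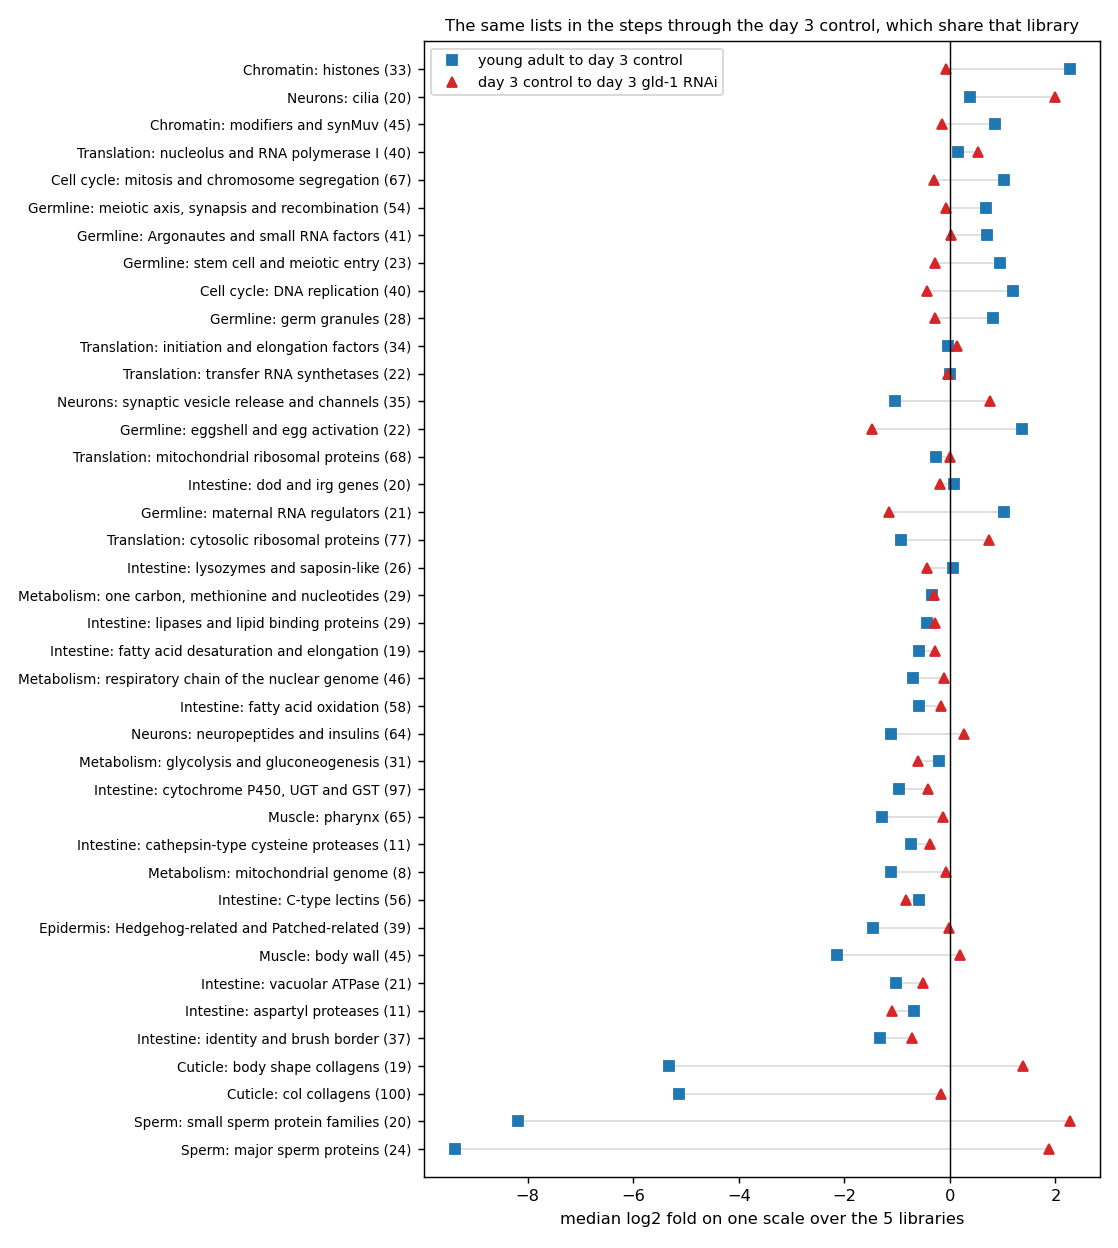
Median log2 step from young adult to control (squares) and from control to gld-1 RNAi (triangles) for the same lists in the same order, on 1 scale over the 5 libraries; the steps share the control library. The msp, small sperm protein, collagen and body wall muscle lists have negative first steps, and cilium genes (1.99) have a larger second than first step. The msp (1.87) and small sperm protein lists (2.27) have positive second steps from very low levels. The body shape collagen list (1.39) also has a positive second step. Oocyte and ribosomal protein lists have steps of opposite sign.

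The small RNA genes rrf-2 and ppw-2 differed between control and gld-1 RNAi and were near level between the libraries from L4440 animals. Of 41 measured genes of Argonautes and small RNA factors, 17 were 2-fold or more higher than in the young adult and 2 lower (median 0.73), the 2 being the sperm Argonautes above. With equal totals, rRNA included, 5 were higher and 2 lower. From control to gld-1 RNAi 6 were higher and 3 lower, near the 11.8% and 7.95% of all measured genes. rrf-2 (M01G12.12), an RNA-dependent RNA polymerase gene, stood at 164, 210, 2002, 1844 and 1664 (log2 fold 3.72, interval 3.49 to 3.97). The Argonaute gene ppw-2 (Y110A7A.18) stood at 2716, 2231, 15630, 19253 and 14390. Both were high in all 3 gld-1 RNAi libraries. prg-1 (D2030.6), the Piwi Argonaute that binds piRNAs, stood at 4326, 8396, 18670, 22983 and 18212. The animals of these 3 libraries had eaten double-stranded RNA against gld-1 and those of the other libraries had eaten L4440 bacteria, so RNAi feeding and the gld-1 state cannot be told apart here.

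The germ cell death and checkpoint list had 8 of 23 measured members (34.8%) 2-fold or more higher and 0 lower (median 0.82). The shares of all measured genes were 17.4% and 23.8%. The number higher was 4 with equal totals, rRNA included, and 13 with equal upper quartiles. egl-1 (F23B12.9), the BH3-only activator of apoptosis, led it at 8.85, 14, 126, 147 and 123. The checkpoint kinase atm-1 stood at 377, 939, 1588, 1796 and 1680. egl-1 was higher in the 3 gld-1 RNAi libraries only, whereas chk-1 was already higher in the control (1146, 2787, 3160, 3356 and 3481).

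Cilium genes were higher in the gld-1 RNAi library in nearly every member. In this animal cilia are found on sensory neurons only, and the list holds the intraflagellar transport complexes, their kinesin and dynein motors, the BBSome and transition zone proteins. Only 20 of its 42 members passed the minimum mean, and 16 of these were 2-fold or more higher and 0 lower (median 2.22). Some passed only through their reads in the gld-1 RNAi library, such as osm-5 with 6 and 125 reads, so this count is partly set by the minimum. At a minimum mean of 200, 1 was higher and 0 lower (median 0.92). With no minimum mean 36 were higher and 0 lower (median 2.35). Over all 42 members, of which 37 had fewer than 50 reads in the young adult library, 40 intervals lay above 0 and 0 below, against 29.9% and 29.2% of all genes with reads. Of all 7998 genes with 1 to 49 young adult reads, 18.7% of intervals lay above 0 and 19.8% below. The median level of the 42 genes was 14.9, 14.9, 68.3, 58.1 and 54.3. The fed library was above the control for 39 of them and the fasted library for 41.

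**Figure D5:**
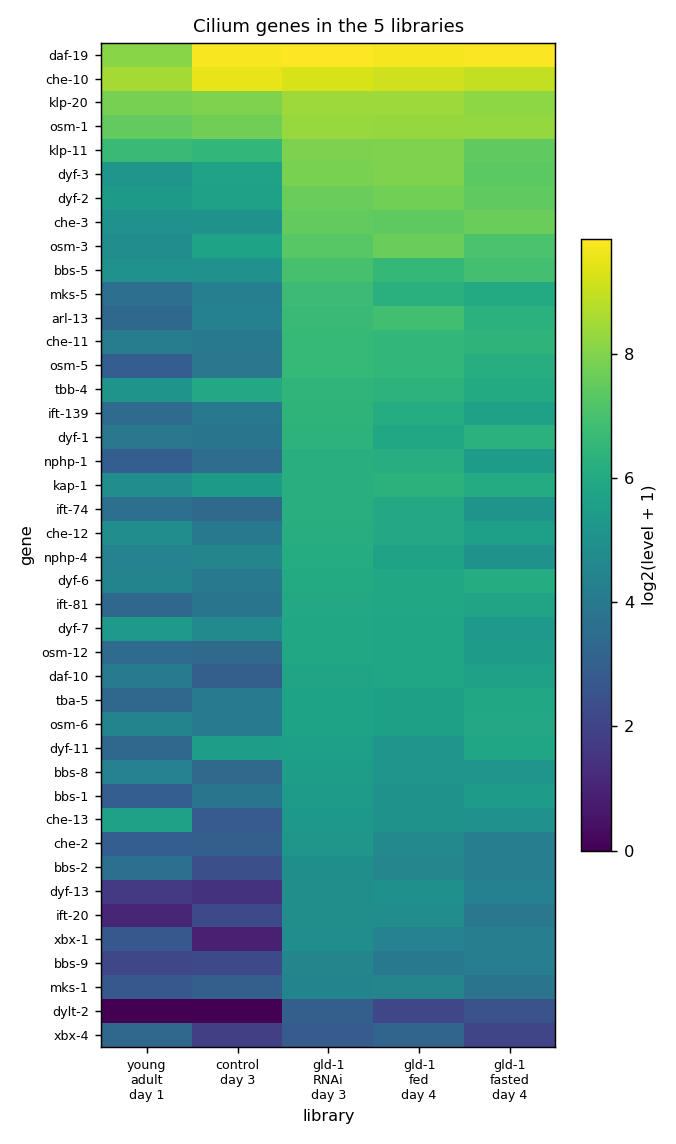
Levels of the 42 cilium genes (rows, sorted by the gld-1 RNAi level) in the 5 libraries (columns), as log2 of the level plus 1. The left pair of columns, from L4440 animals, is darker than the right 3, from gld-1 RNAi animals, for most rows, while daf-19 and che-10 at the top are already high in the control.

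The difference varied within the cilium list and its transport subunits. osm-5 (Y41G9A.1), a subunit of transport complex B, stood at 6.64, 14, 95.9, 91.4 and 68.7 (log2 fold 3.78, interval 2.80 to 5.44). arl-13, a small GTPase of the ciliary membrane, stood at 8.85, 19.2, 102, 115 and 78.3, and the kinesin motor osm-3 at 27.6, 51.5, 155, 198 and 134. The transition zone genes nphp-1 (log2 fold 3.41, 6 and 96 reads) and mks-5 (3.29, 10 and 141 reads) were also far apart. Other transport genes were closer to level, among them osm-1 (log2 fold 0.99), the kinesin gene klp-20 (0.68) and che-13 (-0.28). daf-19 (F33H1.1), the RFX transcription factor that switches on cilium genes, had another order, at 275, 856, 926, 847 and 890. It was low in the young adult library only. These counts are small, and the summed list took 0.0107%, 0.0162%, 0.0326%, 0.0293% and 0.0266% of reads outside rRNA.

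Other neuronal genes did not share this. Synaptic vesicle and channel genes had a median of 0.12, with 3 of 35 higher and 3 lower, and equal totals with rRNA turned it to -0.30. Their steps were -1.04 to the control and 0.76 from control to gld-1 RNAi. The GABA synthesis gene unc-25 stood at 309, 67.3, 72.1, 77.2 and 67.1, while the active zone gene unc-10 stood at 128, 70.8, 283, 293 and 283. The neuropeptide gene nlp-18 (F33A8.2) was highest in the 3 gld-1 RNAi libraries (129, 64.6, 716, 574 and 670), as was the tubulin gene tbb-6 (T04H1.9; 106, 69.9, 1636, 1471 and 1277).

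Nucleolar genes were higher, and mostly in the step from control to gld-1 RNAi. Of 40 measured genes of the nucleolus and RNA polymerase I, 14 were 2-fold or more higher and 1 lower (median 0.83), with steps of 0.16 and 0.53. The number higher was 7 with equal totals, rRNA included, and 23 with equal upper quartiles. rpoa-1, the largest subunit of RNA polymerase I, stood at 1746, 3141, 8235, 9470 and 8538. The nucleolin gene nucl-1 (K07H8.10) stood at 19915, 20274, 44485, 57858 and 51556. Both were highest in the 3 gld-1 RNAi libraries. Of F-box, MATH and Skp1-related genes, which mark proteins for degradation, 46 of 94 measured members were higher and 7 lower (median 0.96), or 29 and 14 with equal totals, rRNA included.

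Several groups were near level between the young adult and the gld-1 RNAi library, with steps of opposite sign. Eggshell and egg activation genes had a median of 0.08 (1 of 22 higher and 1 lower), which equal totals with rRNA turned to -0.35, and steps of 1.36 and -1.48. rme-2 (T11F8.3), which takes up yolk, stood at 12315, 30956, 7543, 4305 and 9681, and the eggshell proteoglycan gene cpg-1 (C07G2.1) at 15497, 53218, 20161, 16316 and 29163. The control was highest for both. The caveolin gene cav-1 (T13F2.8) was the exception among them, low in the young adult only (75.2, 3292, 1730, 1727 and 1860). Maternal RNA regulators had a median of -0.04, above 0 at 0.20 with equal upper quartiles, and steps of 1.02 and -1.15.

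Cytosolic ribosomal proteins had the opposite order. They took 11.3%, 5.88%, 11.1%, 12.5% and 11.1% of reads outside rRNA. Their median log2 fold was -0.06, or 0.18 with equal upper quartiles, and 76 of 77 were within 2-fold. The exception was rpl-37.1 (2396, 633, 956, 1085 and 903). The steps were -0.93 and 0.75. Transfer RNA synthetases and proteasome subunits, with medians of 0.14 and -0.06, were all within 2-fold. Equal totals with rRNA turned the first to -0.28, and equal upper quartiles the second to 0.17.

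Genes of the X chromosome were lower than those of the autosomes. C. elegans germ cells keep the X largely silent, and genes of the soma are common on it. Of 1359 measured X genes 34.4% were 2-fold or more lower (median -0.38), against 22.5% of 9041 autosomal genes (median 0.15). At means of at least 1000, 43.6% of 220 X genes were lower (median -0.72) and 8.26% of 3510 autosomal genes (median 0.43). At means from 50 to 200 the order was lost, with medians of -0.61 and -0.69. X genes took 9.24%, 7.04%, 6%, 5.51% and 4.64% of reads outside rRNA. Without msp and col genes the median of X genes was -0.37 and 33.8% were lower.

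Some related genes on the X and on autosomes are given as examples. They were chosen after their values were seen, so they add no support to the difference above. The non-muscle myosin nmy-1, on X, stood at 8999, 2797, 2391, 2560 and 2038, and nmy-2, the form of the early embryo and germline, on I, at 10803, 22610, 22003, 22807 and 24619. The ATP synthase subunit gene asb-2, on X, stood at 6097, 1710, 2151, 1730 and 1939, and asb-1, on III, at 5274, 5556, 4185, 4324 and 4487. asg-2, on X, had a log2 fold of -2.41 and asg-1, on I, one of -0.42. Other genes of X were higher, such as the elongation factor eef-1A.2 (9409, 5933, 22522, 19869 and 18149) and the chitinase cht-1 (48.7, 2115, 1305, 1453 and 2036). The tubulins give a pair on autosomes, with tba-4 (II) at 2000 and 239 and tba-2 (I) at 18653 and 27876.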

How the data were processed

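RNA was measured in 5 pooled libraries, grouped by the sample titles. The signal values, as deposited by the authors in 1 table for each library pair, are read counts per gene over a DESeq size factor of that pair. They were made with TopHat, HTSeq and DESeq, per the submitters' processing notes; versions and genome build are not given in the sources used here. Library columns were taken from the order of the table names. Whole reads were recovered from low values: 100% came out whole within 0.1 read, and recurring libraries gave equal reads (0 genes differed). With 1 library a side no count model could be fitted to them, so no p-value was computed; an adjusted p-value is the authors' deposited one. An unequal rRNA share affects levels set relative to totals.

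The members and the 64 gene lists were chosen with earlier results of these data known. Of 45461 identifiers 44936 were matched through WBcel235 (Ensembl release 115 and RefSeq), used for names, biotypes, exon lengths and chromosomes; the 525 others kept their identifier. The lists hold 4533 matched entries, and 41 listed names were not matched. A pseudocount of 1 and a minimum mean of 50 were used. Intervals are exact (Clopper-Pearson) on the recovered reads. Folds given as at least a value use a floor of 3 reads. The computation was tested on simulated data and ran in Python 3.11.15 with numpy 2.4.6, pandas 2.3.3 and scipy 1.17.1.

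Genes were named by rule: gld-1; the 12 genes at either end of the folds among those with a name, a mean of at least 100 and at least 10 reads in both libraries (at most 3 of a name family); the 8 most abundant on each side of 2-fold; and of each list the 4 members furthest along its median and the 1 furthest against it. Tissue markers (elt-2, ges-1, act-5, myo-1, myo-2, rme-2, cpg-1) came from the marker list. The genes alg-3, asb-1, asb-2, asg-1, che-10, che-13, cyc-2.1, daf-19, his-24, his-71, nphp-1, osm-1, sams-3, sams-4 and vit-2, and members of the plotted panels, were chosen after their values were seen.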

Additional observations from a re-analysis of the deposited data

How the results depend on the processing

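The counts of 1876 higher and 2570 lower genes moved most with the scaling, the minimum mean and the threshold. With equal totals, rRNA included, 886 genes were higher. With a minimum mean of 10, 4079 were lower, and with one of 200, 1247. With no minimum, 4536 were higher and 6013 lower. At 1.5-fold 3406 were higher, and at 4-fold 398 were higher and 1516 lower. Of all genes past 2-fold, 42.2% were higher as deposited, 20.3% with equal totals including rRNA, 39% without rRNA, 54.9% with equal upper quartiles and 51.2% at a minimum mean of 200. The cause was not tested.

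Of 64 list medians, 10 had another sign with equal totals including rRNA, 7 with equal upper quartiles, 1 with equal totals without rRNA and 3 with no minimum. The only one past 2-fold among them was that of the chemoreceptors, -1.86 over 6 measured genes and 0.90 with no minimum. Among the 347 genes named by the rule, 0 of those past 2-fold changed sign with scaling or pseudocount. Sign alone is meant here, and the size of the folds moved with the scaling. The list of sperm activation, motility and fertilization moved from -0.83 to -2.02 at a minimum mean of 10, histones from 3.02 to 1.63 and cilium genes from 2.22 to 0.92 at one of 200. Counts under 50 reads leave wide intervals. No paired analysis was possible because each group has 1 library.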

Other observations

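Some groups with mixed directions stand outside the lists above. Of 109 measured nuclear hormone receptors, a family enlarged in nematodes, 38 (34.9%) were lower by 2-fold or more and 10 (9.17%) higher. Their median was -0.53, or 0.16 at a minimum mean of 200. nhr-114 was the lowest (1312, 97.8, 85.9, 105 and 63.9, in the order used above), and nhr-2 the highest (64.1, 425, 309, 312 and 340). Of 38 measured transthyretin-related genes 15 (39.5%) were lower and 5 (13.2%) higher, with ttr-14 at 2623, 86.5, 64.4, 58.1 and 67.1. The shares of all measured genes were 23.8% lower and 17.4% higher. Of 31 autophagy genes 5 were higher and 2 lower, and the aggregate receptor gene sepa-1 was high in the control alone (7.74, 779, 90.5, 90.5 and 68.7).

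Of 182 measured pseudogenes, by the annotation used, 35.2% were 2-fold or more higher and 17.6% lower (median 0.68), against 16.7% and 24.1% of 10408 protein-coding genes (median 0.10). Their median steps were -0.36 to the control and 0.84 from control to gld-1 RNAi. Reads of pseudogenes may be shared with their parent genes. pals-27, of a family with members of the intracellular pathogen response, was low in both libraries from L4440 animals and high in the 3 others (2.21, 3.49, 239, 238 and 117). The cadherin gene fmi-1 had the same order (28.8, 98.7, 808, 749 and 682).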
